A study of Lemna aequinoctialis with 6 samples.

Results

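Polygalacturonases were described in Lemna aequinoctialis, a floating plant of the duckweed family, in 3 samples given indole-3-propionic acid (IPA) and 3 control samples. The members were chosen from the authors' deposited list of transcripts that differed between IPA and control, by the word polygalacturonase in the gene description, with inhibitors and galacturonosyltransferases left out. This gave 35 of the 5093 listed transcripts, in 14 Trinity genes (groups of transcripts that the assembler Trinity builds as isoforms of a gene), out of 81787 transcripts of 28620 Trinity genes in the whole table. RNA came from ground lyophilised plants of both groups, and the labels named no dose, no duration and no origin of the replicates. Because the list had been selected on the difference between IPA and control (largest listed FDR 0.05, smallest absolute log2 fold change 1), that difference is given below as a description of the members and not as a test. The members nearest to those limits had an FDR of 0.0440 and 0.0434 and an absolute log2 fold change of 1.07 in the authors' deposited table.

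Pectin is the gel-forming polysaccharide of the primary wall and of the middle lamella that holds plant cells together. Polygalacturonases cut its homogalacturonan backbone, mostly where pectin methylesterases have removed methyl groups. Pectinesterase inhibitors act on the methylesterases, and polygalacturonase inhibitors mainly on enzymes of fungi. In other plants, polygalacturonases are known from fruit softening, organ abscission, pollen development and cell separation. Duckweeds multiply mainly by daughter fronds that detach from the mother frond.

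Levels are normalised read counts, that is, reads per transcript divided by a factor for each library. A read was worth 0.0205 to 0.0318 of this unit, and a floor of 3 reads lay between 0.0614 and 0.0954. The libraries held 30149649, 45233584 and 36366004 reads for IPA 1, 2 and 3, and 38556985, 38877870 and 41370062 reads for control 1, 2 and 3. Over the 78722 transcripts kept by a filter on low reads, the range of log2(value + 0.5) had a median of 0.36 within IPA and 0.53 within control. Genes are named by their Trinity numbers. Transcript lengths were not used here, so levels of different genes are read counts and not numbers of molecules. In these whole-plant samples, fewer cells of a type and less RNA per cell cannot be told apart. Similar copies and isoforms can share reads, so which isoform a read came from is uncertain.

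Of the 35 transcripts, 32 in 11 genes were lower in IPA and 3 in 3 other genes were higher. Summed, the 32 lower transcripts stood at 9.08, 7.72 and 9.79 in IPA 1, 2 and 3, against 413, 173 and 58.8 in control 1, 2 and 3. The lowest control sum was 6.01 times the highest IPA sum, while the controls differed among themselves by up to 7.02-fold. These sums rested on 316, 377 and 396 reads in IPA 1, 2 and 3 and on 13677, 5437 and 2570 reads in control 1, 2 and 3. In the authors' deposited table, the log2 fold changes of the 32 ran from -8.17 to -1.43 with a median of -5.05. Over all 2507 listed transcripts that were lower in IPA the median was -1.47. The values for DN2606_c5_g1_i1 (-8.17), DN17268_c0_g1_i3 (-7.95) and DN98767_c0_g1_i2 (-7.18) belong to members without a read in any IPA library, so their size is not measured. On the log2(value + 0.5) scale these members stood at -1.39, -1.33 and -0.93. Of the 68 transcripts that the authors' deposited table places at a log2 fold change of -4 or lower, 23 were polygalacturonases. They included all 9 listed isoforms of DN17268_c0_g1, and many of the 23 rested on few IPA reads. Lower transcripts made up 91.4% of the polygalacturonases and 49.2% of that list.

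**Figure D1:**
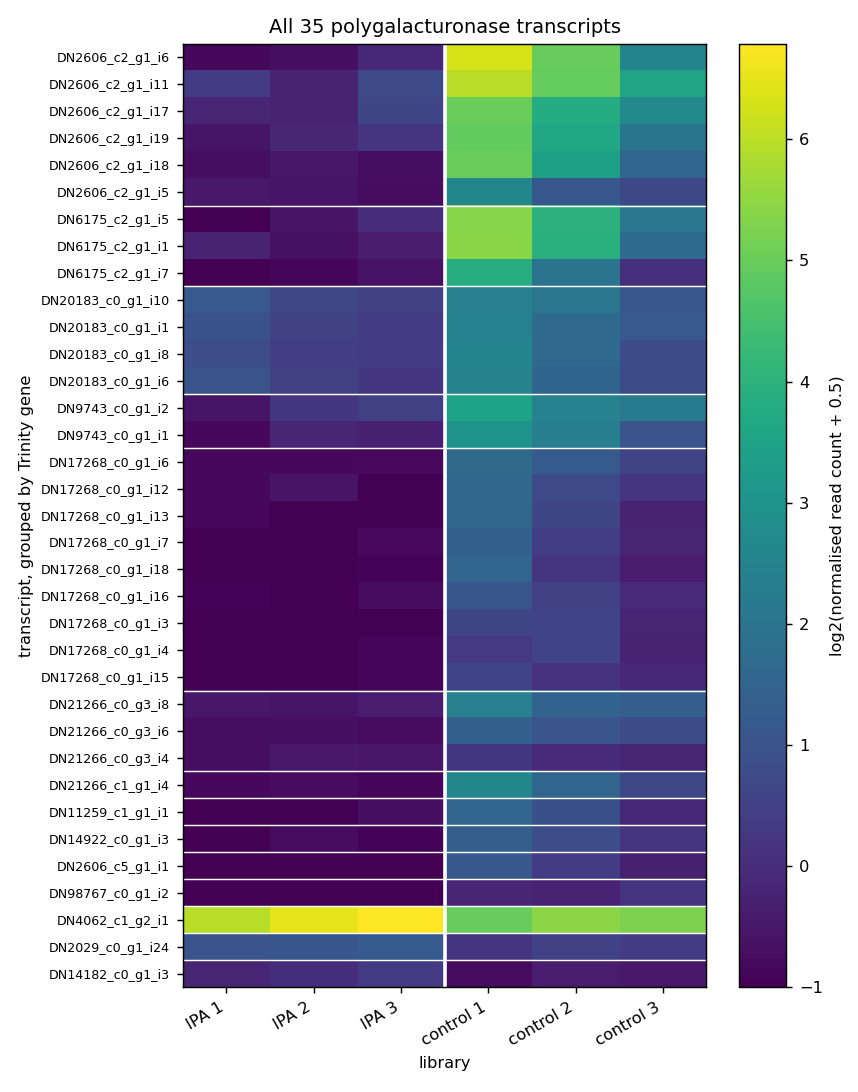
Colours give log2(normalised read count + 0.5) of each of the 35 transcripts (rows, grouped by Trinity gene) in IPA 1 to 3 (left) and control 1 to 3 (right). The rows of DN2606_c2_g1 and DN6175_c2_g1 are brightest in control 1, and the 3 lowest rows are brighter in IPA than in control.

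The gene DN2606_c2_g1 held 6 listed isoforms, all described as polygalacturonase and matched by the authors to the UniProt entry Q02096, the avocado enzyme known from fruit ripening. Its isoforms summed to 1.75, 1.60 and 3.46 in IPA 1, 2 and 3, against 242, 98.4 and 29.4 in control 1, 2 and 3. The sum averaged 2.27 ± 1.03 in IPA and 123 ± 108 in control (SD, n = 3 each), which is 54.3-fold lower in IPA. The groups did not overlap, and the SD of the control group was nearly as large as its mean. Its isoform with most reads, DN2606_c2_g1_i6, had 0.0575, 0.123 and 0.420 in IPA 1, 2 and 3, against 79.9, 30.7 and 5.19 in control 1, 2 and 3. The isoform DN2606_c2_g1_i11 had 0.776, 0.348 and 1.14 in IPA 1, 2 and 3, against 62.0, 30.2 and 11.1 in control 1, 2 and 3. Both isoforms were highest in control 1 and lowest, among the controls, in control 3. The other 4 isoforms had control means of 2.74 to 17.2 and IPA means of 0.148 to 0.604. The member of this gene with the smallest difference, DN2606_c2_g1_i5, had a log2 difference of -2.04 ± 0.41 (SE) on the log2(value + 0.5) scale, against -5.15 ± 0.83 for DN2606_c2_g1_i6.

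The gene DN6175_c2_g1 had 3 isoforms, also highest in control 1 and lowest in control 3 among the controls, and matched to Q02096 or to P35336, a kiwifruit polygalacturonase. Their sum was 0.345, 0.348 and 0.914 in IPA 1, 2 and 3, against 96.2, 34.3 and 7.07 in control 1, 2 and 3. It averaged 0.536 ± 0.328 in IPA and 45.8 ± 45.7 in control (SD, n = 3 each), 85.6-fold lower in IPA. The isoform with most reads, DN6175_c2_g1_i5, had 0, 0.164 and 0.494 in IPA 1, 2 and 3, against 41.0, 15.7 and 3.75 in control 1, 2 and 3. DN6175_c2_g1_i7 had the widest ratio of control 1 to control 3 of all members (26.2), with 0, 0.0409 and 0.148 in IPA 1, 2 and 3, against 13.8, 3.53 and 0.526 in control 1, 2 and 3. Likeness of profiles was measured over 6 libraries as the root mean square difference of log2(value + 0.5), each profile centred on its mean. Only transcripts of the authors' list were compared. By this measure 6 other transcripts of DN2606_c2_g1 and DN6175_c2_g1 lay 0.44 to 0.85 from DN2606_c2_g1_i6, nearer than any described transcript of that list that was no polygalacturonase. The remaining transcripts of these genes, DN6175_c2_g1_i7 at 1.19 and DN2606_c2_g1_i5 at 1.72, lay farther away than the 5 named next. This distance also depends on level, because the added 0.5 flattens the profiles of transcripts with low values. DN2606_c2_g1_i5 had a ratio of control 1 to control 3 of 4.85, near the 5.6 of DN2606_c2_g1_i11. The 5 nearest described transcripts of the list outside the family, 1 per gene, were the auxin-responsive protein SAUR50 (0.86), the protease Metacaspase-6 (0.89), the Glu S.griseus protease inhibitor (0.93), Elicitor-responsive protein 1 (0.95) and Protease inhibitor HPI (0.96). This likeness was added after the values were seen, and the same 6 libraries had chosen the list.

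**Figure D2:**
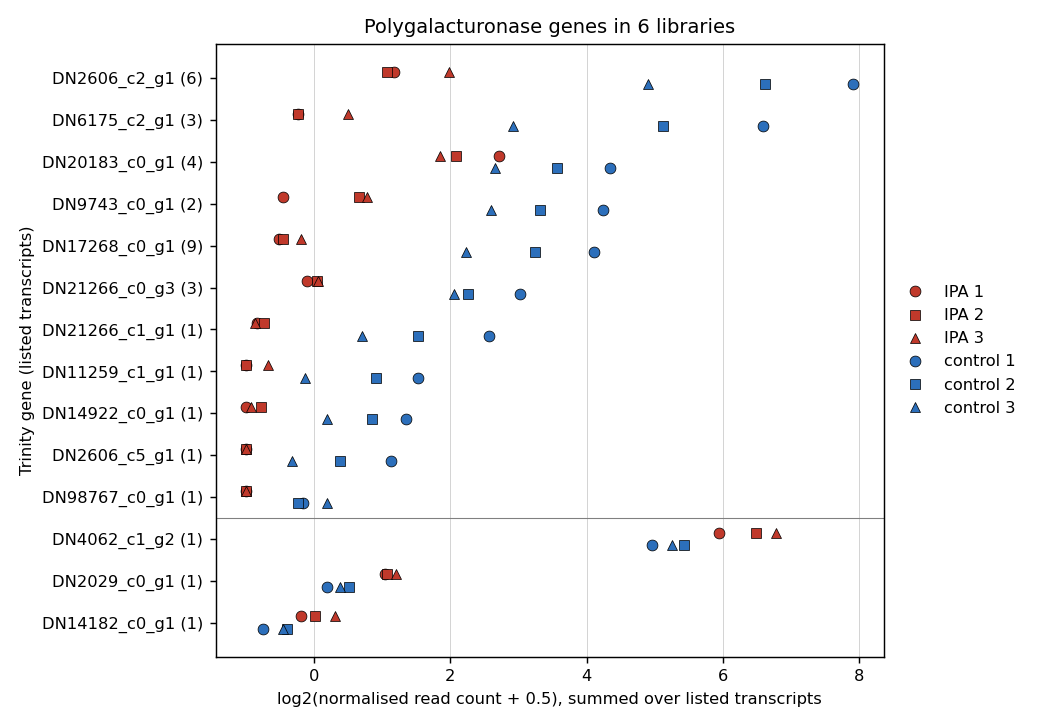
Each row is a Trinity gene (number of listed transcripts in brackets), and each point a library, as log2 of the summed normalised read count + 0.5, with IPA in red above control in blue. In 10 of the 11 genes above the grey line every IPA point lies left of every control point, and the exception is DN20183_c0_g1.

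A middle set of genes was lower in IPA with a narrower control spread. DN17268_c0_g1, with 9 listed isoforms, summed to 0.201, 0.225 and 0.371 in IPA 1, 2 and 3, against 16.7, 8.94 and 4.21 in control 1, 2 and 3, 37.5-fold lower in IPA. Its isoform with most reads, DN17268_c0_g1_i6, had 0.0575, 0.0614 and 0.0741 in IPA 1, 2 and 3, against 2.75, 1.81 and 1.01 in control 1, 2 and 3. All of these IPA values were at or under 3 reads. The isoform DN17268_c0_g1_i3 had no read in any IPA library and averaged 0.803 ± 0.380 in control (SD, n = 3), at least 10.9-fold lower in IPA when the floor of 3 reads per library stands in for 0. Another isoform, DN17268_c0_g1_i4, was the only member highest in control 2 among those lower in IPA.

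DN9743_c0_g1 had a pair of isoforms, described as polygalacturonase and as probable polygalacturonase At3g15720. They summed to 0.230, 1.08 and 1.21 in IPA 1, 2 and 3, against 18.4, 9.48 and 5.54 in control 1, 2 and 3, 13.2-fold lower in IPA. Within IPA this gene also varied, with IPA 3 at 5.27 times IPA 1. Its isoform with most reads, DN9743_c0_g1_i2, had 0.172, 0.696 and 0.890 in IPA 1, 2 and 3, against 10.9, 4.99 and 4.05 in control 1, 2 and 3.

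DN21266_c0_g3 held both transcripts described as QRT2, a polygalacturonase that in Arabidopsis acts in separating pollen grains, and another transcript described only as polygalacturonase. The 3 isoforms summed to 0.431, 0.532 and 0.544 in IPA 1, 2 and 3, against 7.63, 4.29 and 3.66 in control 1, 2 and 3, 10.3-fold lower in IPA. The QRT2 transcript DN21266_c0_g3_i6 had 0.115, 0.123 and 0.0988 in IPA 1, 2 and 3, against 2.14, 1.56 and 1.26 in control 1, 2 and 3. The other, DN21266_c0_g3_i4, had 0.115, 0.225 and 0.198 in IPA 1, 2 and 3, against 0.694, 0.445 and 0.366 in control 1, 2 and 3, the smallest log2 difference of the 32 (-0.55 ± 0.20, SE). The transcript with most reads of this gene, DN21266_c0_g3_i8, had 0.201, 0.184 and 0.247 in IPA 1, 2 and 3, against 4.80, 2.29 and 2.04 in control 1, 2 and 3. A separate gene, DN21266_c1_g1, had 0.0575, 0.102 and 0.0494 in IPA 1, 2 and 3, against 5.40, 2.39 and 1.12 in control 1, 2 and 3, 42.6-fold lower in IPA.

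In 4 further genes a single low transcript was listed. ADPG2 is known in Arabidopsis for a polygalacturonase of floral organ abscission and fruit opening. The transcript with this description, DN2606_c5_g1_i1, had no read in any IPA library, against 1.69, 0.795 and 0.297 in control 1, 2 and 3, at least 12.5-fold lower in IPA by the floor of 3 reads per library. DN11259_c1_g1_i1 had 0, 0 and 0.124 in IPA 1, 2 and 3, against 2.38, 1.37 and 0.412 in control 1, 2 and 3. DN14922_c0_g1_i3 had 0, 0.0819 and 0.0247 in IPA 1, 2 and 3, against 2.05, 1.30 and 0.640 in control 1, 2 and 3. Pooled reads of the groups put this pair lower in IPA by 32.1-fold (95% counting interval 13.4 to 100.0) and 31.4-fold (13.1 to 98.3), intervals that cover counting error only. The probable polygalacturonase At2g43860 of DN98767_c0_g1_i2 had no read in any IPA library, against 0.392, 0.350 and 0.640 in control 1, 2 and 3, at least 6.24-fold lower in IPA by the same floor. It was the member highest in control 3 among those lower in IPA.

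By the ratio of group means, DN20183_c0_g1 differed least among the 11 lower genes, where the floor of 3 reads stood in for genes without IPA reads. Its 4 listed isoforms were matched to P48979, a peach polygalacturonase, or to At2g43860, and summed to 6.06, 3.75 and 3.09 in IPA 1, 2 and 3, against 19.8, 11.4 and 5.81 in control 1, 2 and 3. The sum averaged 4.30 ± 1.56 in IPA and 12.3 ± 7.06 in control (SD, n = 3 each), 2.87-fold lower in IPA. IPA 1 lay above control 3, so the groups overlapped, as they did in 3 of the 4 isoforms. Its isoform with most reads, DN20183_c0_g1_i10, had 1.78, 1.08 and 0.890 in IPA 1, 2 and 3, against 4.80, 3.72 and 1.67 in control 1, 2 and 3.

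None of the 3 transcripts that were higher in IPA was highest in control 1 among the controls. Polygalacturonase 1 beta-like protein 2, DN4062_c1_g2_i1, is named after the beta subunit of tomato polygalacturonase, which is not itself the catalytic chain. It had 61.1, 89.4 and 110 in IPA 1, 2 and 3, against 30.8, 42.5 and 37.9 in control 1, 2 and 3. It averaged 87.0 ± 24.8 in IPA and 37.1 ± 5.87 in control (SD, n = 3 each), 2.35 times as high in IPA, and the groups did not overlap. DN2029_c0_g1_i24 had 1.55, 1.60 and 1.80 in IPA 1, 2 and 3, against 0.634, 0.922 and 0.801 in control 1, 2 and 3. DN14182_c0_g1_i3, described as probable polygalacturonase, had 0.373, 0.512 and 0.741 in IPA 1, 2 and 3, against 0.0905, 0.254 and 0.229 in control 1, 2 and 3. All 3 were lowest in control 1 and highest, among the controls, in control 2. For DN2029_c0_g1_i24 and DN14182_c0_g1_i3 this order was within counting error. The described transcripts of other genes in the authors' list nearest in profile to DN4062_c1_g2_i1 over 6 libraries were Protein LEAD-SENSITIVE 1 (root mean square difference 0.06), Phosphate transporter PHO1 homolog 1 (0.07), Transcription factor NIGT1 (0.08), Probable pectinesterase/pectinesterase inhibitor 34 (0.08) and DeSI-like protein sdu1 (0.08). The PHO1 homolog 1 transcript had 0, 0.0954 and 0.0457 in control 1, 2 and 3, at or under the floor of 3 reads.

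The lower genes also differed between the control libraries, a spread that is not the difference on which the list had been selected, although the same libraries gave both. In 10 of the 11 genes the summed listed isoforms were highest in control 1 and lowest in control 3, and the exception was DN98767_c0_g1. The ratio of control 1 to control 3 differed between copies by more than counting error. It was 13.6 for DN6175_c2_g1 (95% counting interval 12.1 to 15.3) and 8.23 for DN2606_c2_g1 (7.76 to 8.74). DN17268_c0_g1 stood at 3.98 (3.36 to 4.73), DN20183_c0_g1 at 3.41 (2.95 to 3.96) and DN9743_c0_g1 at 3.33 (2.86 to 3.88), intervals that overlapped each other. The lowest ratio above 1 was that of DN21266_c0_g3, the gene with the QRT2 transcripts, at 2.09 (1.70 to 2.56). For DN98767_c0_g1 it was 0.613 (0.291 to 1.22). Among the genes with a transcript higher in IPA, DN4062_c1_g2 stood at 0.814 (0.752 to 0.881). The listed transcripts of DN2029_c0_g1 at 0.792 (0.438 to 1.4) and of DN14182_c0_g1 at 0.396 (0.07 to 1.54) had intervals that included 1. These intervals compare 2 libraries and cover counting error only.

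**Figure D3:**
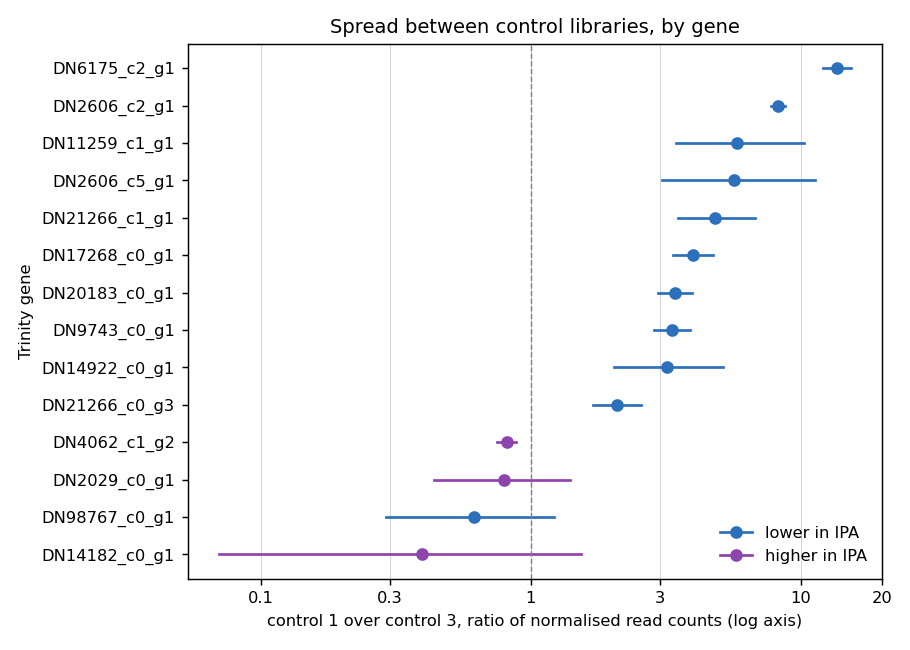
Points give the ratio of control 1 to control 3 in normalised read count, on a log axis, for the listed isoforms of each of the 14 genes, and lines the 95% interval from counting error. DN6175_c2_g1 at 13.6 and DN2606_c2_g1 at 8.23 have the highest ratios. The next 8 genes lie between 2.09 and 5.79, where only the intervals of DN11259_c1_g1 and DN2606_c5_g1 reach that of DN2606_c2_g1. The listed isoforms of the 3 genes with a transcript higher in IPA lie below 1, with the intervals of DN2029_c0_g1 and DN14182_c0_g1 reaching above 1. Over all their isoforms, listed or not, these 2 genes lie above 1, at 1.39 and 2.88 (not drawn).

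Over single transcripts, 30 of the 32 lower members (93.8%) were highest in control 1, with control 2 between it and control 3. This order of the controls was also common outside the family, in 24.2% of all 78722 transcripts kept, in 61.9% of the 2475 other listed transcripts that were lower in IPA, and in 82.2% of the 45 others with a log2 fold change of -4 or lower in the authors' deposited table. The range between controls on the log2(value + 0.5) scale had a median of 1.65 in the 32 lower members, against 1.86 in those 45, 0.88 in the 2475 and 0.53 in all transcripts kept. In the 3 higher members it was 0.35. The range within IPA had a median of 0.27 in the 32 lower members and 0.36 in all transcripts kept, but 11, 10 and 5 of the 32 were at 0 in IPA 1, 2 and 3, where a range cannot show. Over all 35 members the median control range was 1.46, and 0.70, 1.46 and 0.84 without control 1, 2 and 3. A range over fewer libraries cannot be wider, so a drop by itself shows nothing about the library left out. A wide spread between controls, with control 1 highest, was thus also found in other listed transcripts with large differences.

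The genes that held the reads of the 32 lower transcripts differed between the groups. DN2606_c2_g1 and DN6175_c2_g1 together took 23.1, 25.2 and 44.7% in IPA 1, 2 and 3, against 81.9, 76.7 and 62.0% in control 1, 2 and 3. DN20183_c0_g1 took 66.8, 48.5 and 31.6% in IPA 1, 2 and 3, against 4.80, 6.58 and 9.88% in control 1, 2 and 3. Neither share overlapped between the groups. Without DN2606_c2_g1 and DN6175_c2_g1, the remaining 23 lower transcripts summed to 6.98, 5.77 and 5.41 in IPA 1, 2 and 3, against 74.5, 40.3 and 22.3 in control 1, 2 and 3. Their controls still spread by 3.34-fold, and the sum was 7.55-fold lower in IPA.

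**Figure D4:**
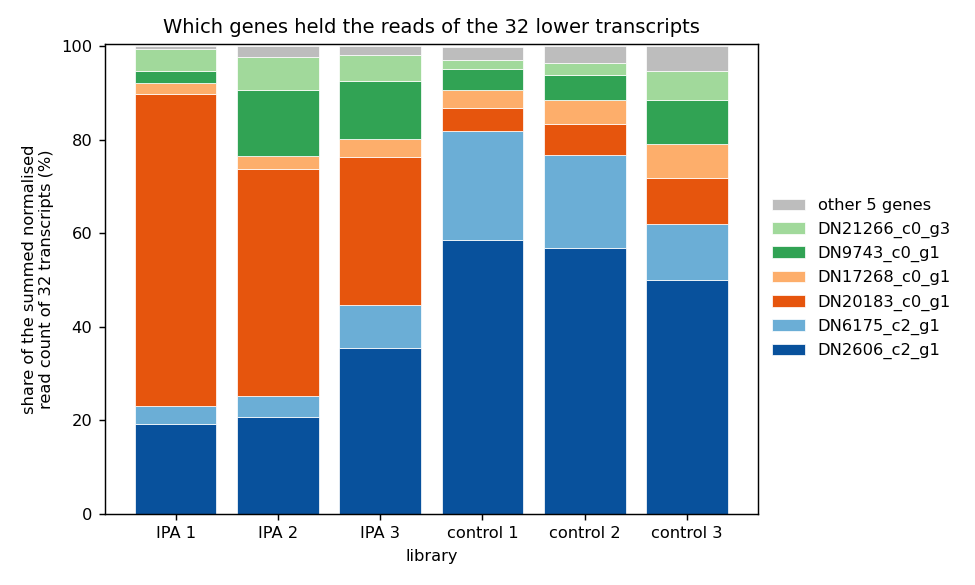
Bars give, for each library, the percentage of the summed normalised read count of the 32 lower transcripts that each gene took, as shares of reads and not of molecules. DN20183_c0_g1 takes 31.6 to 66.8% in IPA and 4.80 to 9.88% in control, while DN2606_c2_g1 takes 50.0 to 58.6% in control.

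The 14 genes also had 39 isoforms that were absent from the authors' list, in 4 genes. The unlisted pair of DN17268_c0_g1 summed to 0, 0.0409 and 0.0988 in IPA 1, 2 and 3, against 2.20, 1.02 and 0.160 in control 1, 2 and 3, and both transcripts fell under the filter on low reads. The unlisted pair of DN20183_c0_g1 summed to 3.33, 1.68 and 1.19 in IPA 1, 2 and 3, against 9.72, 3.75 and 2.29 in control 1, 2 and 3, with log2 differences of -0.92 and -0.90 (lowest limma FDR 0.186). All 4 of these isoforms had the order of the listed ones among the controls, highest in control 1 and lowest in control 3. The other genes with unlisted isoforms were those with a higher member, and there the listed transcript was a small part. In DN14182_c0_g1 the listed isoform reached at most 0.741, while the 2 unlisted ones summed to 59.8, 47.9 and 74.8 in IPA 1, 2 and 3, against 106, 72.3 and 36.4 in control 1, 2 and 3. All its isoforms together averaged 61.4 ± 13.6 in IPA and 71.6 ± 34.5 in control (SD, n = 3 each), and the groups overlapped. In DN2029_c0_g1, with 33 unlisted isoforms, the sum over all 34 was 32.9, 40.8 and 45.0 in IPA 1, 2 and 3, against 32.3, 32.8 and 23.2 in control 1, 2 and 3, so that the groups nearly touched without overlapping. None of the 37 unlisted isoforms that passed the filter was past an FDR of 0.05 in limma.

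For scale, all transcripts were fitted with limma (log2(value + 0.5), Benjamini-Hochberg adjustment over 78722 transcripts). Of the 35 members, all of which passed the filter, 26 were past an FDR of 0.05 and lower in IPA, where 3.87% of all transcripts were, and 2 were past it and higher, where 4.49% were. The groups did not overlap in 29 members lower in IPA, against 16.3% of all transcripts, and in 3 members higher in IPA, against 16.6%. As the list was selected on this contrast, nothing is read from these counts. The 7 members past no threshold were 3 isoforms of DN20183_c0_g1, DN17268_c0_g1_i18, DN21266_c0_g3_i4, DN6175_c2_g1_i7 and DN14182_c0_g1_i3. Single libraries moved the count of lower members, to 13 when either control 2 or IPA 2 was left out and to 16 when IPA 3 was. The count of higher members was then 0, and it was 1 when control 1, control 3 or IPA 1 was left out. Among all transcripts, 6587 were past the threshold. Leaving out control 2 gave 1519, leaving out control 3 gave 10421, and leaving out IPA 1, 2 or 3 gave 3570, 1293 or 2502. The labels named no batch.

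Other genes of pectin turnover went both ways. They too were taken from the list the authors had selected on these samples, so their counts are descriptions. Pectin methylesterases, which prepare pectin for cutting, counted 47 transcripts of 12 genes. Of these, 45 were past a limma FDR of 0.05 and higher in IPA, where 4.49% of all transcripts were. Past it and lower was 1, where 3.87% of all transcripts were. Their median log2 difference was 1.74, against -1.64 for the 35 polygalacturonases and 0.022 for all transcripts kept. A single gene, DN893_c0_g1, made up 29 of the 47, with a sum of 50.2, 73.0 and 176 in IPA 1, 2 and 3, against 3.68, 4.80 and 4.53 in control 1, 2 and 3. The IPA libraries spread more than the controls in this gene. Its transcript DN893_c0_g1_i38, Probable pectinesterase 8, had 6.38, 9.15 and 24.2 in IPA 1, 2 and 3, against 0.241, 0.223 and 0.252 in control 1, 2 and 3. DN893_c0_g1_i28, Probable pectinesterase 68, had 1.92, 2.50 and 4.87 in IPA 1, 2 and 3, against 0.121, 0 and 0.137 in control 1, 2 and 3. The methylesterase that was lower and past the threshold, Probable pectinesterase/pectinesterase inhibitor 7 (DN518_c1_g1_i1), had 38.3, 32.2 and 26.0 in IPA 1, 2 and 3, against 104, 92.5 and 59.6 in control 1, 2 and 3.

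Polygalacturonase inhibitors, leucine-rich repeat proteins that act mainly on enzymes of fungi, were represented by 2 transcripts of 1 gene. Both were past an FDR of 0.05 and higher in IPA, where 4.49% of all transcripts were. DN203_c0_g1_i4 had 334, 414 and 315 in IPA 1, 2 and 3, against 238, 169 and 121 in control 1, 2 and 3 (log2 1.06 ± 0.25, SE, limma FDR 0.0291). Its isoform DN203_c0_g1_i6 had 153, 183 and 134 in IPA 1, 2 and 3, against 85.7, 81.8 and 56.4 in control 1, 2 and 3. Their summed control 1 was 1.83 times control 3.

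Of 3 pectinesterase inhibitor transcripts, 2 of 1 gene were past the threshold and lower and 1 was past it and higher. Over all transcripts, 3.87% were past it and lower and 4.49% past it and higher. Pectinesterase inhibitor 10, DN6715_c0_g1_i2, had 0.517, 0.512 and 0.494 in IPA 1, 2 and 3, against 20.1, 10.5 and 6.52 in control 1, 2 and 3 (log2 -3.54 ± 0.33, SE, limma FDR 0.000652). It was highest in control 1 and lowest in control 3 among the controls, as the polygalacturonases were. Pectinesterase inhibitor 7, DN3324_c0_g1_i1, had 38.5, 56.6 and 39.7 in IPA 1, 2 and 3, against 17.0, 25.4 and 23.9 in control 1, 2 and 3. The 2 pectate lyase transcripts, of the other main class of pectin-cutting enzymes, came from 1 gene and summed to 1.81, 2.54 and 1.63 in IPA 1, 2 and 3, against 2.35, 6.30 and 7.89 in control 1, 2 and 3. Neither was past the threshold, and their order among the controls was the opposite, with control 1 lowest.

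Genes of pectin synthesis and deacetylation counted 9 transcripts of 6 genes. Of these, 5 were past the threshold and higher, where 4.49% of all transcripts were, and 4 were past it and lower, where 3.87% were. Probable galacturonosyltransferase 12 had isoforms on both sides, DN2998_c0_g1_i2 with 5.72, 8.93 and 7.78 in IPA 1, 2 and 3, against 0.513, 1.02 and 1.53 in control 1, 2 and 3, and DN2998_c0_g1_i13 with 4.11, 7.57 and 8.65 in IPA, against 15.2, 16.8 and 16.8 in control. Pectin acetylesterase 8, DN12377_c0_g1_i12, was lower, with 0.431, 0.553 and 0.840 in IPA 1, 2 and 3, against 1.63, 1.65 and 1.37 in control 1, 2 and 3. Probable galacturonosyltransferase-like 6, DN9523_c0_g1_i4, was higher, with 7.93, 12.3 and 12.4 in IPA 1, 2 and 3, against 3.89, 4.96 and 4.62 in control 1, 2 and 3.

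**Figure D5:**
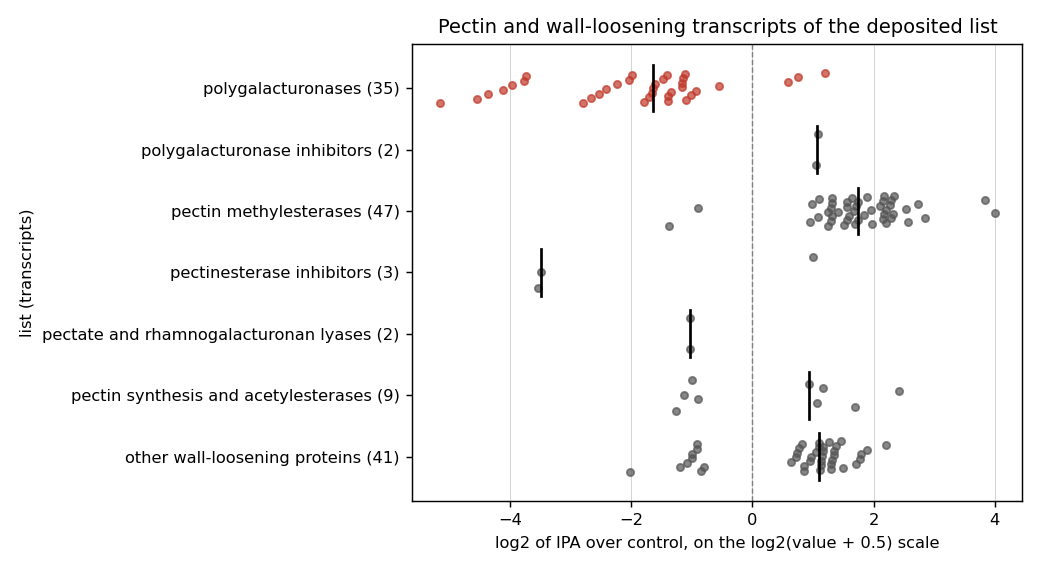
Points give the log2 of IPA over control on the log2(value + 0.5) scale for each listed transcript (number in brackets), and black bars the median of each list. The polygalacturonases lie mostly left of 0 with a median of -1.64, and the pectin methylesterases mostly right of it with a median of 1.74.

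Descriptions that name pollen, anther or flower, or MADS-box factors, covered 63 listed transcripts of 24 genes, of which 32 were past the threshold and lower in IPA, where 3.87% of all transcripts were, and 6 were past it and higher, where 4.49% were. As this list too came from transcripts selected on the same contrast, nothing is read from these counts. Their summed level was 239 to 318 in IPA and 960 to 1150 in control, and none was at 0 in a library. The sum of control 1 was 1.19 times that of control 3, against 7.02 times for the 32 polygalacturonases. Most of the control sum came from Major pollen allergen Bet v 1-D/H and Pollen-specific protein C13, so the ratio of 1.19 is mostly theirs. Likewise, the ratio of 7.02 is mostly that of DN2606_c2_g1 and DN6175_c2_g1, and it was 3.34 without them. By single transcripts, 48 of the 53 of this list that were lower in IPA were highest in control 1 among the controls, as 30 of the 32 polygalacturonases were. So were 74.7% of the 2475 listed lower transcripts that were not polygalacturonases, and 38.4% of all transcripts kept. The 53 were isoforms of 17 genes. Major pollen allergen Bet v 1-D/H, of a family also known for pathogenesis-related proteins, had 119, 92.8 and 31.6 in IPA 1, 2 and 3, against 526, 720 and 551 in control 1, 2 and 3. Pollen-specific protein C13, DN17284_c0_g1_i2, had 52.9, 52.3 and 52.0 in IPA 1, 2 and 3, against 273, 192 and 204 in control 1, 2 and 3. JOINTLESS, in tomato a MADS-box factor of the flower stalk's abscission zone, had 1.55, 1.88 and 2.20 in IPA 1, 2 and 3, against 7.12, 4.52 and 5.90 in control 1, 2 and 3, in the transcript DN10117_c0_g1_i8. Among those higher in IPA, Protein LATE FLOWERING (DN1790_c0_g1_i1) had 2.53, 4.75 and 5.29 in IPA 1, 2 and 3, against 0.332, 0.891 and 0.663 in control 1, 2 and 3. Protein FLOWERING LOCUS T (DN9907_c0_g1_i23), a signal of flower induction, had 1.92, 2.07 and 2.87 in IPA 1, 2 and 3, against 0.996, 0.763 and 0.915 in control 1, 2 and 3. Root descriptions covered 11 transcripts of 6 genes, with 5 past the threshold on each side, and summed to 30.3 to 40.2 in IPA and 18.3 to 26.5 in control. The part of these organs in the level of the polygalacturonases was not tested.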

How the data were processed

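Per the labels' protocols, stranded mRNA libraries were sequenced as read pairs on an Illumina platform. Per the submitters' processing notes, FastQC, Trimmomatic, BWA, featureCounts and edgeR were used; their versions are not given in the sources used here. As deposited, the file held 6 columns of a normalised signal per transcript. All values (100% within 0.01 reads) came out as whole reads, the largest deviation being 0.0013 reads. The authors' deposited list gave log2 fold changes, a likelihood-ratio score, p-values and FDR, with descriptions.

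The members and gene lists were chosen with earlier results of these data known. All 81787 transcripts were filtered with filterByExpr of edgeR 4.0.16 (minimum count 10, minimum total 15), which left out 3065, and tested as log2(value + 0.5) with limma 3.58.1 (trend, robust) in R 4.3.3, FDR 0.05. The step was tested on simulated data with the same spread in all libraries and changes planted only in transcripts with many reads. That simulation does not cover members with few reads or the wide spread between these controls. The labels do not say that replicates were separate cultures, so p-values cover only their spread, which may be technical. Counting intervals are exact conditional binomial intervals (SciPy 1.17.1). Named: for each member gene the transcript with the highest mean, and for each list up to 2 transcripts per direction with the lowest FDR past 0.05 and a mean of at least 1. Other named items were chosen after their values were seen. Alternatives were edgeR's quasi-likelihood test, DESeq2 1.42.0, other pseudocounts, no filter, library totals, a replicate block and leaving out each library.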

Additional observations from a re-analysis of the deposited data

How the results depend on the processing

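Leaving out each library in turn gave 1293 to 10421 transcripts past the FDR of 0.05, 13 to 31 lower members, 0 to 1 higher members, and a median control range of 0.70 to 1.46 log2. With all libraries, this median range was 1.99 with a pseudocount of 0.1, 0.87 with a pseudocount of 2 and 1.26 with library totals. Its size thus depended on the pseudocount. The count over all transcripts was 10358 with DESeq2, 11817 with library totals and 4377 with the replicate block. Library totals moved the median log2 difference of all transcripts by 0.225, and 84.1% of calls were then higher in IPA, against 53.7% in the deposited scaling; no member that was past the threshold changed its sign in any setting. Lower members past the threshold numbered 28 with edgeR's quasi-likelihood test, 30 with DESeq2 and 18 with a pseudocount of 2, against 26. Same-numbered samples showed no clear pairing (correlations of -0.0874, 0.0818 and -0.134 between their deviations from the group means). Differently numbered samples ranged from -0.093 to 0.131. With 3 libraries per group these correlations depend on one another and cannot exclude pairing. With the replicate block 27 lower members and 1 higher member passed. For 9 lower members with at most 3 reads in each IPA library, depth limits the size of the difference.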

Other observations

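Other wall-loosening proteins, matched by description among the listed transcripts, counted 41 transcripts of 17 genes, of which 26 were past a limma FDR of 0.05 and higher in IPA, where 4.49% of all transcripts were, and 3 were past it and lower, where 3.87% were. The list had been selected on this contrast, so the counts are descriptions. Their summed level was 767 ± 177 in IPA and 342 ± 73.2 in control (SD, n = 3 each). Expansin-A10, of a family that loosens walls without cutting them, had 29.5, 43.2 and 47.6 in IPA 1, 2 and 3, against 6.40, 8.94 and 9.49 in control 1, 2 and 3 (DN2149_c0_g1_i2). Endoglucanase 10 (DN1759_c0_g1_i1), of a family of glucan-cutting enzymes, had 30.4, 40.4 and 44.1 in IPA 1, 2 and 3, against 15.2, 15.1 and 13.6 in control 1, 2 and 3. Endoglucanase 20 (DN5242_c4_g1_i2) was on the other side, with 0.862, 1.00 and 1.11 in IPA 1, 2 and 3, against 7.76, 5.76 and 3.75 in control 1, 2 and 3. Of the 9 listed transcripts of this group that were lower in IPA, 8 were highest in control 1. So were 74.7% of the 2475 listed lower transcripts that were not polygalacturonases. The 9 were isoforms of 4 genes.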
